A study of Homo sapiens with 8 samples.

Results

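AKR1C1, AKR1C2 and AKR1C3 are 3 of the 15041 genes listed in single-cell RNA profiles of MDA-MB-231, a mesenchymal-like human breast cancer line. The genes were taken by symbol from the gene tables of all 8 libraries, and each of the 3 was listed in every library. They were chosen by their levels in these libraries, after AKR1C1 and AKR1C2 had been seen to fall upon irradiation of WT cells, and AKR1C1 also on average over both genotypes. For these 3 genes every comparison that uses WT libraries is therefore a description without a test, and their test within knockdown cells is not fully independent of the choice. The study compared WT cells with ATM knockdown cells, either untreated or 4 h after 5 Gy of ionizing radiation. Its stated purpose was to find changes in transcripts after irradiation in both genotypes. Each of the 4 groups (untreated WT, irradiated WT, untreated ATM knockdown, irradiated ATM knockdown) had 2 libraries of 41 to 48 analysed cells, 363 in all. All groups share the parental line and the same serum-containing culture medium. How the knockdown was made, and whether it is 1 clone or a pool, is not given in the sources used here.

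The AKR1C enzymes belong to the aldo-keto reductases, soluble proteins that use NADPH to reduce carbonyl groups on steroids, prostaglandins, lipid aldehydes and drugs. AKR1C1 is best known for converting progesterone to a weaker metabolite, AKR1C2 for inactivating dihydrotestosterone, and AKR1C3 for making testosterone from androstenedione and for reducing prostaglandin D to an F-type product. Their genes stand side by side on chromosome 10 and are often counted among the targets of NRF2, the transcription factor of the antioxidant response. ATM is the kinase that signals DNA breaks after irradiation.

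The libraries held 9321268 to 24256471 counts over the analysed cells, with irradiated WT replicate 1 the shallowest, and single cells held 9411 to 2241907 counts. Mitochondrial genes took 9.36% to 12% of the counts of a library. No full cell name and no set of counts was found in more than 1 library. ATM itself stood at 57.9 and 31.1 CPM (counts per 1000000 counts of a library) in untreated WT, 28 and 33.2 in irradiated WT, 13.8 and 33.0 in untreated knockdown, and 13.0 and 14.0 in irradiated knockdown. The library labelled untreated ATM knockdown replicate 2 thus lay within the range of the WT libraries in its sum of ATM counts. ATM was counted in 45.5% of its cells, against 44.2% to 58.1% in the other knockdown libraries and 66.7% to 87.5% in WT, and 24.9% of its ATM counts came from 1 cell. The names of all WT libraries share a suffix that differs from the suffix shared by all knockdown libraries. What the suffixes mean is not given, and any difference in handling between them could not be told apart from genotype. Whether paired libraries represent independent cultures is not given, so p-values measure only how far the libraries differ, a spread that may be technical. The 8 markers of the mesenchymal-like line, among them VIM and CD44, were each at 10 CPM or more in every library and summed to 8054 to 11327 CPM. Of 8 luminal breast markers, ESR1 and FOXA1 had no row in the tables used here, the progesterone receptor gene PGR was at most 0.289 CPM and CDH1 at most 2.02 CPM. KRT19 stood at 289 to 491 CPM, GATA3 at 35.7 to 54.8 CPM, EPCAM at 15.5 to 61.3 CPM and ERBB2 at 8.06 to 25.5 CPM.

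The sequences of the 3 genes are shown first, because they set how far a read can be assigned to 1 of them. In GENCODE release 29 (GRCh38), AKR1C1 (ENSG00000187134.13) lies on chr10:4963253-4983283 on the forward strand. AKR1C2 (ENSG00000151632.17) follows on chr10:4987400-5018031 on the reverse strand, and AKR1C3 (ENSG00000196139.13) on chr10:5035354-5107686 on the forward strand. AKR1C2 overlaps the antisense gene AL391427.1 and a small nucleolar RNA gene on the opposite strand. AKR1C3 also overlaps a small nucleolar RNA gene on the opposite strand. Whether the counting used strand is not stated, so antisense reads may be in the counts of both genes. Each coding sequence has 972 bases. Those of AKR1C1 and AKR1C2 differed at 19 bases (98.0% identity), those of AKR1C1 and AKR1C3 at 83 (91.5%), and those of AKR1C2 and AKR1C3 at 87 (91.0%). The 120 coding bases within 1 exon that tell AKR1C1 and AKR1C2 apart best hold 10 of their 19 differences. They lie in exon 2, at chr10:4965914-4966033 (forward), chr10:5001562-5001681 (reverse) and chr10:5096410-5096529 (forward), and capitals mark the bases that differ from AKR1C1:
AKR1C1: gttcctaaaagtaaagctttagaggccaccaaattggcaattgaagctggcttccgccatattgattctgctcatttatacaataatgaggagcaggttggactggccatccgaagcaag
AKR1C2: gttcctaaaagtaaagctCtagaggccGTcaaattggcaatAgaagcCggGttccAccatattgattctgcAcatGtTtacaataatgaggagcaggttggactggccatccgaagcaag
AKR1C3: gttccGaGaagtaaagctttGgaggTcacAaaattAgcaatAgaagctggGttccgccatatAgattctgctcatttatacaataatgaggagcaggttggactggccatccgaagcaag

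The opposite case is shown by 100 coding bases of exon 7, at chr10:4972584-4972683 in AKR1C1, chr10:4995385-4995484 in AKR1C2 and chr10:5102485-5102584 in AKR1C3. This stretch has 0 differences among the 3 genes, so a read that lies within it cannot be given to 1 of them:
Shared by AKR1C1, AKR1C2 and AKR1C3: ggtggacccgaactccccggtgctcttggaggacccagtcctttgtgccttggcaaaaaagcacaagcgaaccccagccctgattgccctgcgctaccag

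The longest run of coding bases shared by AKR1C1 and AKR1C2 was 189 bases. Of all stretches of 50 bases in the AKR1C1 coding sequence, 51.8% occurred unchanged in AKR1C2 transcripts, which fell to 19.1% for stretches of 100 bases and 4.98% for 150 bases. The libraries were made from the 3′ ends of transcripts, so the 3′ untranslated regions matter more. Stretches of 100 bases were shared with the partner gene in 14.8% of the AKR1C1 3′ untranslated region (5541 bases) and in 32.4% of that of AKR1C2 (2596 bases). The AKR1C3 3′ untranslated region (183 bases) shared none with the other AKR1C genes at 50 bases or more. The read length and the treatment of reads that match several genes are not given in the sources used here. Of the AKR1C3 coding sequence, 9.74% of the stretches of 100 bases were shared with another AKR1C gene. AKR1C1 and AKR1C2 are therefore also given as a sum.

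The starts of the genes were also alike. Over the 250 bases before the RefSeq start (GRCh38.p14), AKR1C1 and AKR1C2 differed at 1 of 246 aligned bases, whereas both were 76.8% to 78.7% identical to the windows before the AKR1C3 starts, of which RefSeq lists 2. All of these windows hold the CCAAT letters on the opposite strand (ATTGG as written), which 32.0% of 35116 promoter windows of that length hold on either strand. Of the 250 bases, 162 in AKR1C1 and 166 in AKR1C2 lie in GENCODE exons of the same gene. For AKR1C3 this holds for 0 bases before the upstream start and for all 250 before the downstream start. The 30 bases around the match follow with the match in capitals, on the strand of the gene. Positions count back from the RefSeq start. All 30 bases lie in such exons, except at the upstream AKR1C3 start, where 0 do.
AKR1C1, chr10:4963326-4963355, forward, match at -77 to -73: ctctcacatgccATTGGttaaccagcagac
AKR1C2, chr10:5003921-5003950, reverse, match at -81 to -77: ctctcacatgccATTGGttaaccagcagac
AKR1C3 (upstream start), chr10:5048696-5048725, forward, match at -73 to -69: cttttacatgctATTGGttaaccattaggc
AKR1C3 (downstream start), chr10:5094316-5094345, forward, match at -86 to -82: ctcctacatgccATTGGttaaccatcagtc

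The antioxidant response element core TGACNNNGC was not found in these windows on either strand (10.9% of all windows hold it), nor were the AP-1 letters TGANTCA (6.57%). TATAAA was found, on the opposite strand, only in the window of the upstream AKR1C3 start, at -26 to -21 (10.7% of all windows).

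The AKR1C genes were high in untreated WT cells and lower in every other group. Relative to untreated WT, the group mean of AKR1C1 was 6.65-fold lower in irradiated WT, 8.75-fold lower in untreated knockdown and 17.1-fold lower in irradiated knockdown. For AKR1C2 these ratios were 11.5, 8.73 and 12.2, and for AKR1C3 they were 2.33, 4.41 and 7.78. In ATM knockdown cells irradiation was followed by smaller log2 differences in the same direction. These did not pass the test for any of the 3 genes in the main setting, a call that depended on the setting for AKR1C1 and AKR1C3. For AKR1C2 the knockdown groups overlapped. For AKR1C3 the change was smaller than in WT by only 0.38 log2 units (SE 0.239).

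**Figure D1:**
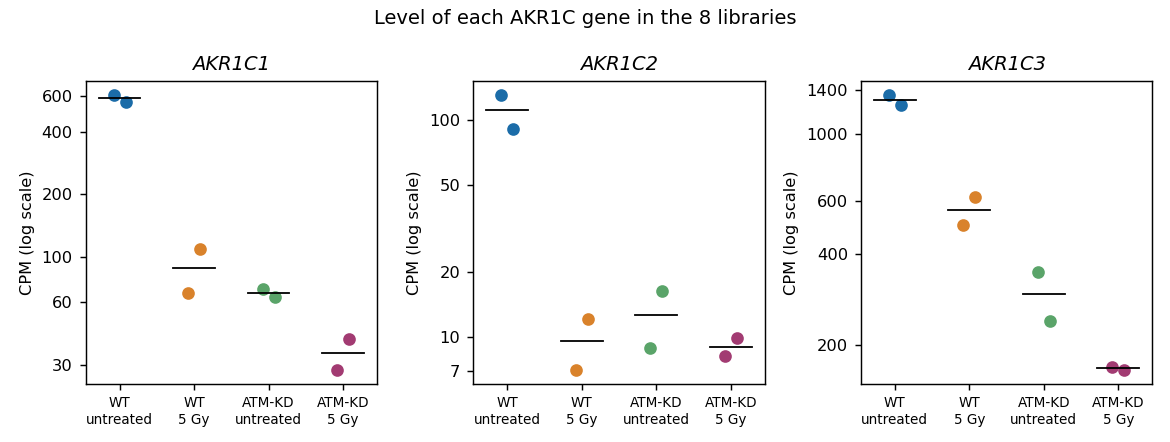
Level of AKR1C1, AKR1C2 and AKR1C3 in CPM (log axis, a separate scale for each gene) in the 4 groups; each point is a library and each bar is the mean of 2 libraries. The 2 untreated WT libraries lie above the other 6 for each gene, at 561 and 608 CPM for AKR1C1 against 109 CPM or less elsewhere.

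AKR1C1 stood at 608 and 561 CPM in untreated WT, 66.7 and 109 CPM in irradiated WT, 69.7 and 64.0 CPM in untreated knockdown and 28.3 and 40.1 CPM in irradiated knockdown. Irradiated WT and untreated knockdown overlapped, while the untreated WT libraries were at least 5.15 times above any other and both irradiated knockdown libraries lay lowest. These values rest on 14740 and 11214 counts in untreated WT and on 560 to 2144 counts elsewhere.

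AKR1C2 stood at 130 and 90.7 CPM in untreated WT, 7.08 and 12.1 CPM in irradiated WT, 8.96 and 16.3 CPM in untreated knockdown and 8.23 and 9.90 CPM in irradiated knockdown. The 3 lower groups overlapped with one another and have no order beyond their spread, and the lower untreated WT library was 5.56 times above the highest of the other 6. The lowest value rests on 66 counts in irradiated WT replicate 1.

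AKR1C3 stood at 1351 and 1251 CPM in untreated WT, 500.0 and 619 CPM in irradiated WT, 350 and 240 CPM in untreated knockdown and 169 and 165 CPM in irradiated knockdown. In these library sums its 4 groups did not overlap, in the order untreated WT, irradiated WT, untreated knockdown, irradiated knockdown. In the median cell the knockdown groups overlapped, at 263 and 125 CPM untreated and 132 and 161 CPM irradiated. The gap between the lower untreated WT library and the highest of the others was 2.02-fold, smaller than for AKR1C1 and AKR1C2. Each library sum rests on at least 3204 counts. In untreated knockdown replicate 1, 1 cell held 26.8% of the AKR1C3 counts, against 7.81% to 14.6% in the other libraries.

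Of the 12456 genes tested, 148 (1.19%) had both untreated WT libraries at least 2-fold above each of the other 6, as did all 3 AKR1C genes. Among the 4959 genes with a mean log2(CPM + 1) of at least 5, 15 did so (0.302%). The AKR1C genes were chosen with a part of this pattern known, so nothing is read from their count.

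In WT cells the log2 difference after irradiation was -2.71 (SE 0.236) for AKR1C1, -3.49 (SE 0.392) for AKR1C2 and -1.20 (SE 0.171) for AKR1C3, where the median over all genes was -0.01. These values come from edgeR fitted to all 8 libraries and are descriptive, because this contrast was used to choose the genes. With AKR1C1 and AKR1C2 counted as a single gene the difference was -2.81 (SE 0.229). In the same contrast 205 of 12456 genes passed (1.65%), 92 of them lower (0.739%).

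In ATM knockdown cells the log2 difference after irradiation was -0.96 (SE 0.227) for AKR1C1, -0.47 (SE 0.364) for AKR1C2 and -0.81 (SE 0.170) for AKR1C3, against a median of 0.01 over all genes. By edgeR's quasi-likelihood test with Benjamini-Hochberg adjustment over all genes, 0 of the 3 passed the threshold of 0.05, in a contrast in which 28 of 12456 genes passed (0.225%), 24 of them lower (0.193%). The adjusted p was 0.122 for AKR1C1, 0.758 for AKR1C2 and 0.0716 for AKR1C3, and the unadjusted p was 0.000729, 0.217 and 0.000242. The fall of AKR1C1 averaged over both genotypes, which includes these libraries, was known beforehand. For AKR1C1 and AKR1C3 both irradiated knockdown libraries lay below both untreated ones, and for AKR1C2 the groups overlapped. This call depended on the setting for AKR1C1 and AKR1C3. AKR1C1 passed in 8 of 19 alternatives, with an adjusted p of 0.00645 in DESeq2, 0.0304 in limma, 0.000114 without a filter on low counts, 0.0140 to 0.0212 without any 1 of the WT libraries and 0.0286 without irradiated knockdown replicate 2. AKR1C3 passed in 8 of 18, with 0.00102 in DESeq2, 2.2e-05 without the filter, 0.0292 with a filter at an average log2 CPM of 5, 0.00633 to 0.0191 without any 1 of the WT libraries, and 0.000829 without the library labelled untreated knockdown replicate 2. Without untreated knockdown replicate 1 its log2 difference was -0.51 (adjusted p = 0.258). AKR1C2 passed in 0 of 19 alternatives, and without the library labelled untreated knockdown replicate 2 its difference vanished (0.0012, adjusted p = 1). Leaving out cells of more than 2 times the median total moved the AKR1C3 difference to -0.49 (adjusted p = 0.204).

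**Figure D2:**
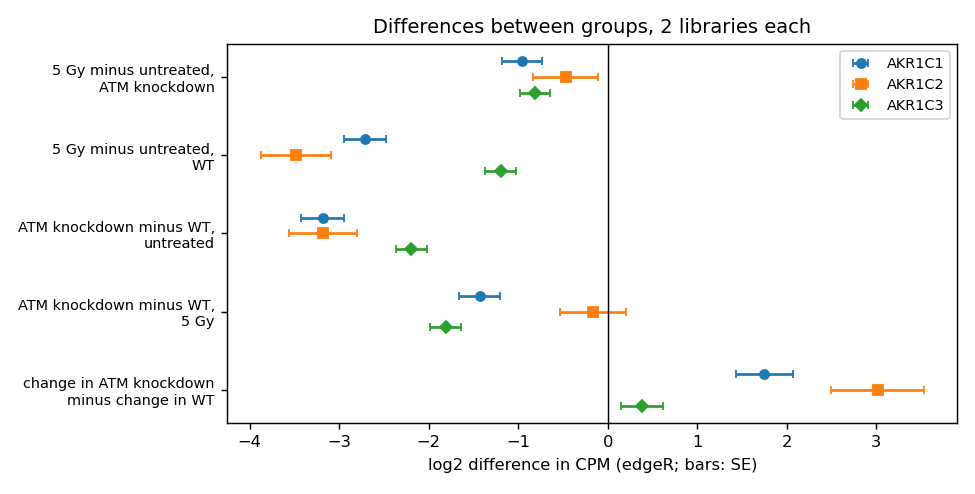
Log2 differences in CPM between groups for the 3 AKR1C genes, from the edgeR fit to all 8 libraries; points are estimates, bars are standard errors, and the vertical line marks no difference. The 3 genes lie left of the line in the first 4 contrasts, from -3.49 for AKR1C2 after irradiation in WT to -0.16 for AKR1C2 between the irradiated groups, and right of it in the last.

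Between the untreated groups, knockdown minus WT, the log2 difference was -3.18 (SE 0.241) for AKR1C1, -3.18 (SE 0.384) for AKR1C2 and -2.19 (SE 0.176) for AKR1C3. Between the irradiated groups it was -1.43 (SE 0.229), -0.16 (SE 0.367) and -1.81 (SE 0.174). AKR1C1 and AKR1C3 were thus lower in knockdown than in WT at both conditions, without overlap between libraries. AKR1C2 libraries did not overlap between the untreated groups and overlapped between the irradiated ones, and its difference between the irradiated groups changed sign without irradiated WT replicate 2 (0.27). Without the library labelled untreated knockdown replicate 2, which held WT-like ATM counts, the untreated differences were -3.11 for AKR1C1, -3.66 for AKR1C2 and -1.94 for AKR1C3.

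The change after irradiation was larger in WT than in knockdown by 1.75 log2 units (SE 0.318) for AKR1C1, 3.02 (SE 0.521) for AKR1C2 and 0.38 (SE 0.239) for AKR1C3. These differences use the WT libraries that chose the genes and carry no test, and the AKR1C3 value moved from 0.12 to 0.69 depending on which untreated knockdown library was left out. Across all genes 23 of 12456 (0.185%) passed this contrast.

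Because AKR1C1 and AKR1C2 share so much sequence, the share of their joint counts given to AKR1C2 was followed by library. It was 17.6% (95% Wilson interval 17.1 to 18.2) and 13.9% (13.3 to 14.5) in untreated WT, and 9.59% (7.61 to 12) and 9.99% (8.85 to 11.3) in irradiated WT. Untreated knockdown gave 11.4% (9.72 to 13.3) and 20.3% (18.3 to 22.5), and irradiated knockdown 22.5% (19.6 to 25.7) and 19.8% (17.4 to 22.4). The share was lower in irradiated than in untreated WT without overlap. The untreated knockdown libraries differed from each other by more than the counting error of reads. No collapsing of reads to molecules is stated, so these intervals cover the counting error of reads only, not the spread over molecules or cells.

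A few cells weigh on these shares. Among cells with at least 20 counts for the pair (12 to 47 a library), the median cell gave AKR1C2 8.44% and 11% in untreated WT, 2.55% and 4.27% in irradiated WT, 9.38% and 11.1% in untreated knockdown, and 10.8% and 4.17% in irradiated knockdown. The medians lie below the library shares throughout, and 1 cell of irradiated knockdown replicate 2 held 43.2% of the AKR1C2 counts of its library.

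**Figure D3:**
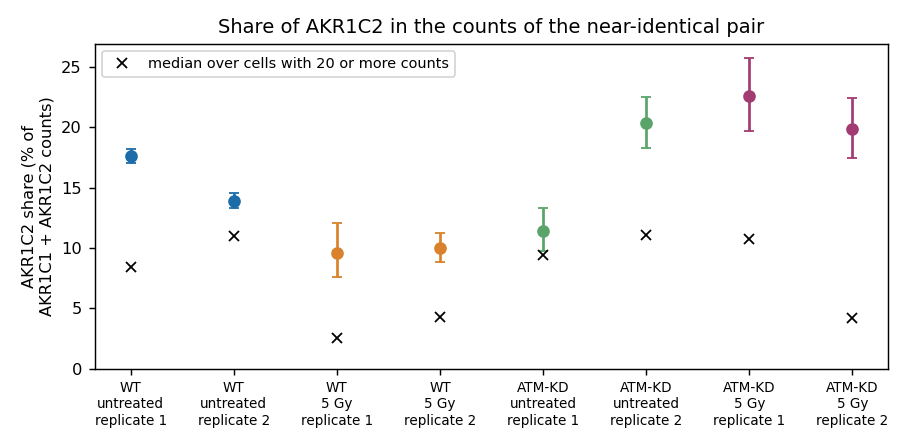
AKR1C2 share of the summed AKR1C1 and AKR1C2 counts in percent, by library; circles with bars are library sums with 95% Wilson intervals, and crosses are medians over cells with 20 or more counts for the pair. The irradiated WT libraries lie at 9.59% and 9.99%, below both untreated WT libraries, and every cross lies below its circle.

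AKR1C3 took 64.7% and 65.7% of the counts of the 3 genes in untreated WT and 75% to 87.1% in the other 6 libraries, a share of counts and not of transcripts. The sum of the 3 genes stood at 2088 and 1903 CPM in untreated WT, 574 and 740 CPM in irradiated WT, 428 and 321 CPM in untreated knockdown and 206 and 215 CPM in irradiated knockdown.

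Single cells were compared after thinning each to 69000 counts, which 330 of the 363 cells reached (89 in untreated WT, 85 in irradiated WT, 73 in untreated knockdown and 83 in irradiated knockdown). The median untreated WT cell held 35 and 28 AKR1C1 counts in the 2 libraries, against 2 and 3.5 in irradiated WT, 2 and 1.5 in untreated knockdown and 1 and 1.5 in irradiated knockdown. The highest cell held 116 and 164 counts in untreated WT, 33 and 39 in irradiated WT, 22 and 37 in untreated knockdown and 11 and 12 in irradiated knockdown.

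AKR1C3 medians were 81 and 61.5 counts in untreated WT, 31 and 43.5 in irradiated WT, 22 and 8.5 in untreated knockdown and 10 and 10.5 in irradiated knockdown. The highest knockdown cell held 72 counts, below the median of 76 over all untreated WT cells, while the highest irradiated WT cells held 148 and 155. Of irradiated WT cells, 12.8% and 13.0% were at or above that untreated median.

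**Figure D4:**
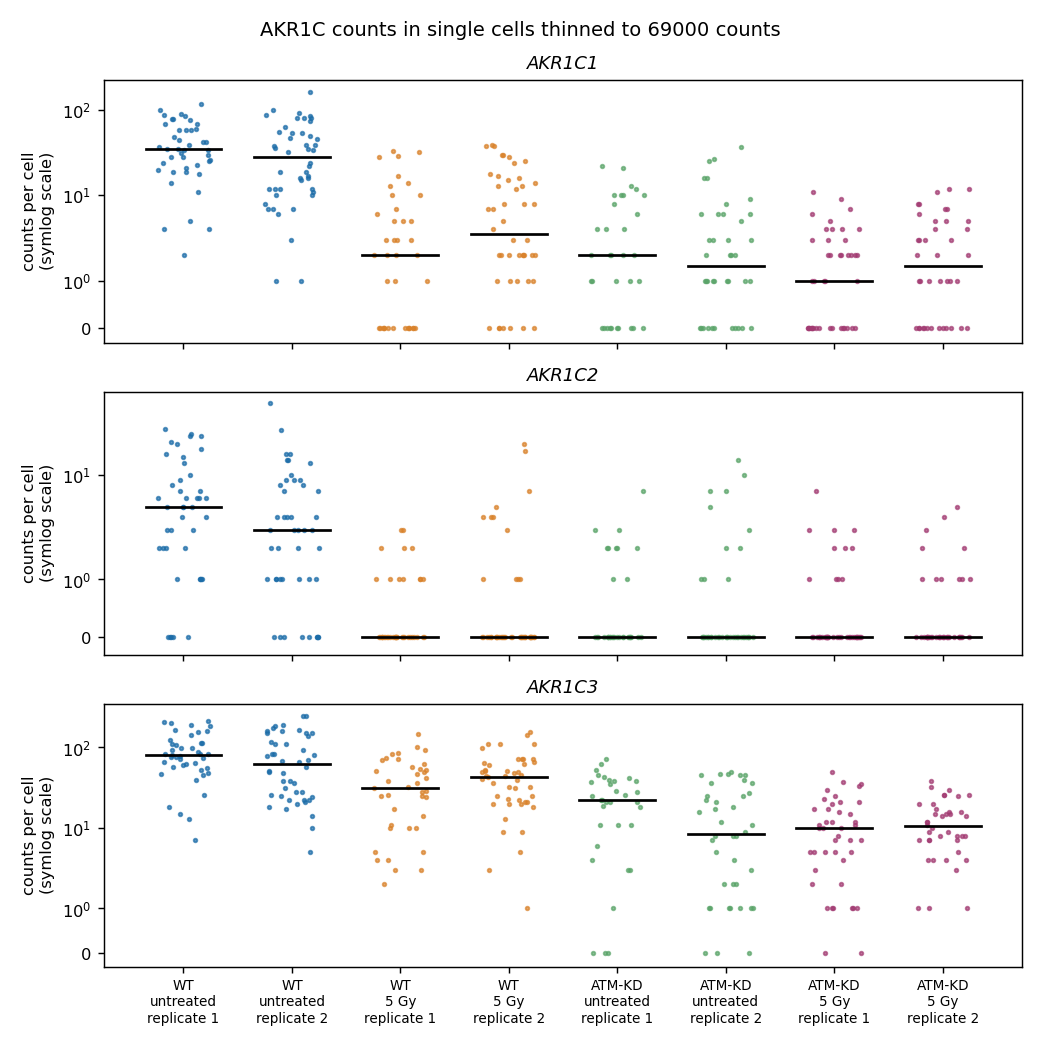
Counts of AKR1C1, AKR1C2 and AKR1C3 in single cells thinned to 69000 counts (vertical axis linear between 0 and 1 and logarithmic above), by library; each point is a cell, spread sideways at random, and each bar is the median of the library. AKR1C1 medians are 35 and 28 in untreated WT and at most 3.5 elsewhere, and the AKR1C2 median is 0 in the 6 other libraries.

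AKR1C1 was counted in all 43 and all 46 thinned untreated WT cells (exact binomial lower bounds 91.8% and 92.3%). In irradiated WT it was counted in 64.1% and 84.8%, in untreated knockdown in 69.7% and 72.5%, and in irradiated knockdown in 58.1% and 67.5%. AKR1C2 was counted in 88.4% and 80.4% of untreated WT cells and in 25.6% to 30.8% of the cells of each other library. AKR1C3 was counted in 90.9% to 100% of cells everywhere. At full depth the lowest share of cells with AKR1C1 was 66.7%, in irradiated WT replicate 1, and the shares with AKR1C2 were 93.8% and 95.8% in untreated WT and 47.9% to 67.4% elsewhere. As a reference for a gene that these cells hardly express, AKR1C4, the liver-enriched relative of the 3 genes, had 1 count in untreated WT replicate 2, 1 in untreated knockdown replicate 2 and 0 elsewhere, where 3 counts would equal 0.124 to 0.322 CPM.

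The genes varied together among cells to a modest degree. Within libraries the Spearman correlation over 33 to 46 thinned cells was 0.15 to 0.61 for AKR1C1 with AKR1C3, -0.05 to 0.56 for AKR1C1 with AKR1C2 and 0.09 to 0.40 for AKR1C2 with AKR1C3. The summed counts of the 3 genes correlated with a cell's depth before thinning at -0.23 to 0.18. Over the 8 libraries Pearson's r of log2(CPM + 1) was 0.94 for AKR1C1 with AKR1C2, 0.95 for AKR1C1 with AKR1C3 and 0.80 for AKR1C2 with AKR1C3. These are descriptions of 4 groups of 2 libraries, in which untreated WT stands apart, and shared reads bear on the first of them.

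Of the 8 other aldo-keto reductases tested, AKR1B1 had both untreated WT libraries at least 2-fold above the other 6. This enzyme reduces glucose to sorbitol and takes part in osmotic protection. It stood at 7602 and 7479 CPM in untreated WT, 1563 and 1415 CPM in irradiated WT, 1559 and 1733 CPM in untreated knockdown and 1922 and 1916 CPM in irradiated knockdown. The untreated WT libraries were far above the other 6, which lay within 1415 to 1922 CPM. Its log2 difference after irradiation was -2.32 in WT (SE 0.102, lower in 2 of 2 libraries), given without a p because this fall was known when the list was set. In knockdown it was 0.23 (SE 0.0974, edgeR adjusted p = 0.493).

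AKR1A1, the broadly expressed aldehyde reductase, stood at 65.0 to 96.8 CPM in all libraries, with log2 differences of 0.11 in WT (SE 0.219) and 0.00065 in knockdown (SE 0.218). AKR1B10, an intestinal relative of AKR1B1 and a frequent NRF2 target, stood at 1.98 to 9.62 CPM. Of the 8, 1 passed in WT (AKR1B1, lower, known beforehand) and 0 passed in knockdown by edgeR's test, with medians of -0.16 and 0.12 and 1 and 0 genes passing in DESeq2. At an unadjusted p under 0.05 stood 1 and 2 of the 8, where all genes gave 13.9% in WT and 8.86% in knockdown.

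**Figure D5:**
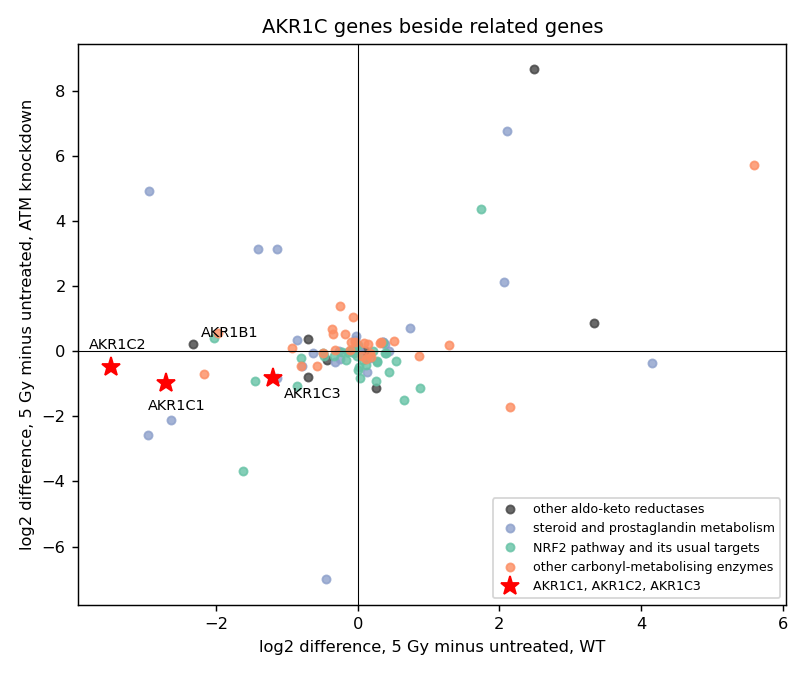
Log2 difference after irradiation in WT (horizontal axis) and in ATM knockdown (vertical axis) for the tested genes of 4 related lists (circles) and for the 3 AKR1C genes (stars). AKR1B1 lies left at -2.32 and 0.23, near the AKR1C genes on the horizontal axis, and most other genes lie near the origin. Some far points are genes with few counts. DHRS3, at 41.4 and 27.1 CPM in untreated WT, HPGD and PTGS1 also lie left.

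The steroid and prostaglandin list (28 genes tested) had 0 genes passing by edgeR in either genotype, with medians of -0.03 in WT and 0.07 in knockdown, 6 and 5 genes at an unadjusted p under 0.05 (13.9% and 8.86% of all genes) and 1 and 1 passing in DESeq2. PTGS1, a cyclooxygenase, and HPGD, which inactivates prostaglandins, followed the AKR1C genes in that both untreated WT libraries were at least 2-fold above the other 6. PTGS1 stood at 16.1 and 20.9 CPM there and at 0.0516 to 3.91 CPM elsewhere, and HPGD at 14.5 and 24.6 CPM and at 0.101 to 6.79 CPM. These, DHRS3 and AKR1B1 were the 4 of 97 tested genes of the related lists that did so, where 148 of all 12456 genes did (1.19%). They were picked out after their values were seen, and the fall of AKR1B1 in WT was known beforehand, so nothing is read from this count.

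The NRF2 list (NRF2 itself, its partners and usual targets; 33 genes tested) had 0 genes passing by edgeR in either genotype, 5 and 6 at an unadjusted p under 0.05 in WT and knockdown (13.9% and 8.86% of all genes), and 1 and 1 passing in DESeq2. In WT 17 of its genes were higher and 16 lower after irradiation, with a median of 0.00, and in knockdown 6 were higher and 27 lower, with a median of -0.21. Over all genes 6075 were higher and 6351 lower in WT, and 6324 higher and 6047 lower in knockdown. NFE2L2, the gene of NRF2, had a log2 difference of -0.0017 (SE 0.192) in WT and -0.15 (SE 0.192) in knockdown, and KEAP1, its inhibitor, 0.36 (SE 0.263) and 0.25 (SE 0.262). NQO1, a quinone reductase, had 0.27 (SE 0.138) and -0.30 (SE 0.138), TXNRD1, a thioredoxin reductase, 0.08 (SE 0.117) and -0.28 (SE 0.117), and GCLM, a subunit of the glutathione-synthesising ligase, 0.13 (SE 0.177) and -0.42 (SE 0.177). None of these 5 passed, with edgeR adjusted p of 0.403 to 1 in WT and 0.488 to 0.902 in knockdown. The untreated WT libraries were not the 2 highest for these 5 genes. NQO1 stood at 485 and 534 CPM in untreated WT and at 393 to 638 CPM elsewhere. TXNRD1 stood at 918 and 821 CPM in untreated WT and at 873 to 1363 CPM elsewhere. The counts and medians of this list describe irradiation only, and its differences between the genotypes were not summarised.

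The list of other carbonyl-metabolising enzymes (28 genes tested) had 0 genes passing by edgeR in either genotype, with medians of -0.05 in WT and 0.20 in knockdown, 6 and 1 genes at an unadjusted p under 0.05 (13.9% and 8.86% of all genes) and 0 and 0 passing in DESeq2. DHRS3, a retinaldehyde reductase, stood at 41.4 and 27.1 CPM in untreated WT and at 0.707 to 10.5 CPM elsewhere.

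The genes most like each AKR1C gene were sought by Pearson's r of log2(CPM + 1) over the 8 libraries among 4957 genes with a mean log2(CPM + 1) of at least 5, a level below that of AKR1C1 and AKR1C3. For AKR1C1 the 10 closest were TIMP3, a metalloproteinase inhibitor (r = 0.994), ATP1B1, a sodium pump subunit (0.987), AIG1, SERINC3, NADK2, TSC22D4, STRN3, CFLAR, NDRG1 and FAM45A (0.964). TIMP3 stood at 2067 and 1972 CPM in untreated WT and at 824 to 1218 CPM elsewhere, a smaller range than that of AKR1C1. For AKR1C2 they were CCDC69 (0.985), HIF1A, the oxygen-regulated transcription factor (0.969), CD55, APLP2, AKR1B1 (0.961), NADK2, CYBRD1, PICALM, HSPH1 and FDFT1 (0.947). For AKR1C3 they were FAM199X (0.987), S100A3, C15orf48, SLC5A3, the inositol transporter (0.983), CARHSP1, BNIP3L, SLCO4A1, ATP1B1, PKM and PRKACA (0.973). At r of 0.95 or more stood 15 genes for AKR1C1, 8 for AKR1C2 and 28 for AKR1C3. NADK2, a mitochondrial enzyme that makes NADP, was on the lists of both AKR1C1 and AKR1C2, and ATP1B1 on those of AKR1C1 and AKR1C3. These r values describe 8 libraries in 4 groups, so any gene high in untreated WT scores well.

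Among cells within a library, where group differences do not enter, the genes that followed the summed counts of the 3 AKR1C genes best included CYP1B1, a steroid- and xenobiotic-metabolising cytochrome (mean Spearman correlation 0.474 over 8 libraries, range 0.107 to 0.662), AKR1B1 (0.425, range 0.310 to 0.533) and S100A4 (0.420). C15orf48, NNMT, MRPS6, ZBED6CL, TNFSF10 and MT-CO2 followed, at 0.387 to 0.335. The mean correlation was 0.3 or more for 26 of 4957 genes. AKR1B1 was also on the list over libraries of AKR1C2, and C15orf48 on that of AKR1C3. Over libraries AKR1B1 had an r of 0.96 with AKR1C2, 0.88 with AKR1C1 and 0.73 with AKR1C3. The genes of the cell list were chosen by their mean correlation over these same libraries, so nothing is read from its sign.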

How the data were processed

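Single cells of MDA-MB-231 were picked by hand and amplified by a modified Smart-seq2 with 3′ libraries, per the labels' protocols. The deposited values are whole-number read counts per gene and cell, made by the authors with Trimmomatic 0.36, HISAT2 2.1.0 and HTSeq 0.9.1 on hg38, per the submitters' processing notes. Annotation, strand, read length and the treatment of duplicates and multiply matching reads are not given in the sources used here.

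Cells with at least 1000 genes and 5000 counts were kept (363 of 378; the 15 left out were knockdown cells), and their counts were summed per library, the replicate. edgeR 4.0.16 (TMM, filterByExpr, quasi-likelihood test, all 4 groups in 1 fit, 4 residual degrees of freedom, biological coefficient of variation 0.458) tested 12456 genes, with Benjamini-Hochberg adjustment at 0.05. The SE is the estimate divided by the root of its F value. On simulated data for the knockdown contrast (12456 genes, of which 12172 were tested) where the changed genes had an average log2 CPM of at least 5 (AKR1C2, at 8.23 to 16.3 CPM, was lower than this in the knockdown libraries), this recovered 54% of genes changed 2-fold and 100% of those changed 4-fold, with 11 false calls, and made 0 calls where no gene was changed. DESeq2 1.42.0 and limma 3.58.1 (mean CPM per cell, pseudocount 1) served as alternatives. Cells were thinned without replacement to 69000 counts. Depth sets counting error only; 3 counts served as the floor, and no replicate pair agreed within sampling noise (chi-square per degree of freedom 30.6 to 63.2).

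Sequences come from GENCODE release 29 transcripts and, for promoters, RefSeq (GRCh38.p14), where all 3 members matched by symbol; no protein sequence was used here. The members and gene lists were chosen with earlier results of these data known, among them the fall of AKR1C1 and AKR1C2 in irradiated WT cells and of AKR1C1 on average over both genotypes. Only the irradiation contrast within knockdown cells was therefore tested for the members, and it is not fully independent of the choice. Genes named are the members; of 4 related lists (other aldo-keto reductases, steroid and prostaglandin metabolism, NRF2, other carbonyl enzymes) up to 4 passing genes each by smallest p and a fixed set of 9; and the 10 genes most like each member over libraries, or most like their sum over cells, at a mean log2 CPM of at least 5. Of the last group, 1 gene is not reported here. Alternatives changed the scaling, the filters on genes and cells, the tool, the groups fitted and the pairing of AKR1C1 with AKR1C2 counts, and left out each library in turn. Marker lists were also summed: luminal breast 378 to 606 CPM (mostly KRT19), leukocyte 454 to 710 CPM (mostly CD74, with PTPRC and LYZ below 2 CPM), hepatocyte 9.61 to 29.8 CPM and embryonic kidney 2.83 to 14.0 CPM. CD14, also on the leukocyte list, differed between groups, at 105 CPM in both untreated WT libraries. It stood at 40.9 and 57.9 CPM in irradiated WT and at 10.2 to 17.9 CPM in knockdown. The part of these markers in the results was not tested.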

Additional observations from a re-analysis of the deposited data

Results flagged for a closer look

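AKR1B1, an aldo-keto reductase among the 10 genes whose level followed that of AKR1C2 most closely over the 8 libraries, differed between the 2 genotypes in its change after irradiation. Its log2 change in ATM knockdown minus that in WT was 2.55 (SE 0.140), from -2.32 in WT and 0.23 in knockdown, and it passed edgeR's interaction contrast over 8 libraries. The fall in WT was known when AKR1B1 was put on the list and makes up most of this value, so the test is not independent and no p is given. Any difference in library handling between the genotypes could not be told apart from genotype here.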

How the results depend on the processing

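No paired analysis was possible because the labels give the libraries no replicate numbers, and those used here only name the libraries. In knockdown, the log2 difference after irradiation ranged over leave-one-out fits from -1.25 to -0.72 for AKR1C1, -0.84 to 0.0012 for AKR1C2 and -1.08 to -0.51 for AKR1C3. AKR1C1 passed without the low-count filter (-0.97), in DESeq2 (-0.96) and in limma (-0.99). AKR1C3 passed without the filter, in DESeq2 and at an average log2 CPM of at least 5 (-0.82 in each). The cause was not tested for any of these.

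Of the described differences, leave-one-out fits gave -3.10 to -2.41 for AKR1C1 and -1.34 to -1.06 for AKR1C3 after irradiation in WT, -2.50 to -1.94 for AKR1C3 between untreated groups, and -0.47 to 0.27 for AKR1C2 and -1.94 to -1.66 for AKR1C3 between irradiated groups. The genotypes' difference in change ranged from 1.46 to 2.14, 2.65 to 3.49 and 0.12 to 0.69 for the 3 genes in order. With limma on the mean CPM per cell, the WT differences were -2.36, -2.71 and -1.01, AKR1C2 differed by -2.69 between untreated groups, and the difference in change was 1.37 for AKR1C1 and 2.27 for AKR1C2. Without cells above 2 times the median total, the WT difference was -2.87 for AKR1C2 and -0.95 for AKR1C3, AKR1C1 differed by -3.40 between untreated groups, AKR1C2 by -0.60 and AKR1C3 by -2.01 between irradiated groups, and the AKR1C2 difference in change was 2.13. With AKR1C1 and AKR1C2 summed, the value standing for AKR1C2 was -2.81 in WT, -1.24 between irradiated groups and 1.94 for the difference in change. The fit to only the groups compared gives no difference in change. Other scalings moved the median of all genes by at most 0.07.

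Among related genes in knockdown, 2 passed in DESeq2 (MAFF and SULT2B1). In WT, 5 passed without the low-count filter (AKR1B1, DHRS3, HPGD, HSD17B4 and HSD17B7), 2 at an average log2 CPM of at least 5 (AKR1B1 and HSD17B4), 3 in DESeq2 (AKR1B1, HSD17B4 and, higher, TXN), 2 in limma (AKR1B1 and MAFF) and 1 to 2 in leave-one-out fits.

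Depth moved the shares of cells most. Thinned to 20000 counts, cells with a count in untreated WT, irradiated WT, untreated knockdown and irradiated knockdown were 94.7%, 54.6%, 38.7% and 44.2% for AKR1C1, 66%, 14.7%, 17.9% and 15.1% for AKR1C2, and 98.9%, 94.8%, 75.1% and 83.7% for AKR1C3. The median cell gave 441, 44.9, 21.2 and 18.2 CPM for AKR1C1 and 59.1, 1.06, 2.03 and 2.16 CPM for AKR1C2 in that order, and for AKR1C3 1071, 194 and 146 CPM in untreated WT, untreated knockdown and irradiated knockdown. The mean over cells gave 118 CPM for AKR1C1 and 14.3 CPM for AKR1C2 in irradiated WT and 181 CPM for AKR1C3 in irradiated knockdown.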
